A study of Drosophila melanogaster with 48 samples.

Results

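Zelda (Zld) is a zinc-finger transcription factor of Drosophila that binds DNA through a zinc-finger domain near its C-terminal end. It is known as a pioneer factor, a protein that reaches its sites in closed chromatin and makes them accessible, and in the early embryo it prepares the zygotic genome for activation. The regions described here are places of open chromatin that were listed with the full-length protein in S2 cells and were not listed with the DNA-binding domain (DBD) alone. S2 cells are a cultured line of male origin with the character of hemocytes, the blood cells of insects. Open chromatin was mapped by ATAC-seq, an assay whose transposase inserts sequencing adapters into accessible DNA.

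The regions were chosen by peak calls alone. The S2-Zld list held 33943 regions after rows with the same peak number were joined, and 25370 of them overlapped the S2-Zld-titration list by at least 1 bp. Of these, 3037 overlapped neither the S2-Zld-DBD list nor the S2-Zld-DBD-titration list and are called domain-absent regions. A further 20111 overlapped both lists and are called domain-shared regions, and 2222 overlapped 1 list only. All lists of the series together held 355066 regions.

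The S2-Zld list was called over S2-Zld cells and S2-WT cells, both given 1000 uM CuSO4, the agent that induces the factor in the cells that carry it. The S2-Zld-titration list covers S2-Zld cells at 0, 500, 1000 and 1500 uM. The S2-Zld-DBD list covers S2-Zld-DBD cells and S2-WT cells at 100 uM, and the S2-Grh-DBD list, used as background, covers cells with the DBD of Grainyhead (Grh) and S2-WT cells at 20 uM. Titration libraries of the domains were made at 400 uM for S2-Zld-DBD and 80 uM for S2-Grh-DBD, and their labels name no list. Every group had 2 libraries, taken at 48 h, counted from the addition of copper in the groups that received it. S2-WT cells are the controls, given copper alone. The series has 48 libraries and 10 peak lists, of 25397 to 71754 regions. Each list covers several libraries together, so there are no values per replicate and the depth is unknown. A region listed for the full-length protein may also be open in S2-WT cells. The full-length protein and a higher copper dose come together in these lists and cannot be told apart. Shares carry exact binomial 95% intervals, which cover counting error over regions only.

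Regions absent from the lists of the Zld domain were mostly weak, and the lists of the Grh domain, which belongs to another protein family, lacked a similar number. Of the 25370 Zld regions, 12.0% (11.6 to 12.4) were absent from both Zld-DBD lists, and 12.4% (12.0 to 12.8), or 3146 regions, were absent from both Grh-DBD lists. The 2 absences fell largely on the same places. Of the domain-absent regions, 2144 were also absent from both Grh-DBD lists, which is 70.6% (68.9 to 72.2) of them and 68.2% (66.5 to 69.8) of the regions absent from the Grh-DBD lists. The Zld-DBD lists hold 34647 and 29048 regions and the Grh-DBD lists 29997 and 28164. With the same number of regions taken from each list, the shares were 10.4% for the Zld-DBD lists and 9.8% for the Grh-DBD lists, so the order of the 2 shares turned. Absence from main and titration lists was also counted apart, at 4126 and 4170 regions for the Zld domain and 4207 and 4368 for the Grh domain. The count of domain-absent regions is fixed by the rule and was given no test.

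Few regions were absent with the Zld domain and present with the Grh domain, or the reverse. A set of 325 domain-absent regions was found in both Grh-DBD lists, and 360 domain-shared regions were absent from both Grh-DBD lists. Their median fold enrichment in the S2-Zld list was 2.89 and 2.78. Fold enrichment is the authors' ratio of signal at the summit to background, and is used here to describe and rank regions within a list.

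The share of absent regions fell with strength in the same way for both domains. The 25370 regions were divided into 10 equal groups (deciles) by their fold enrichment in the S2-Zld list. In the weakest decile, with a median of 1.96, 43.8% were absent from both Zld-DBD lists and 45.5% from both Grh-DBD lists. In decile 3, with a median of 3.12, the shares were 20.6% and 22.0%. In decile 5, with a median of 4.66, they were 6.86% and 6.58%. In decile 7, 26 regions were absent from the Zld-DBD lists and 23 from the Grh-DBD lists, and in the strongest decile, of 2537 regions, the count was 0 for both. In every decile the intervals of the Zld-DBD and Grh-DBD shares overlapped.

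**Figure D1:**
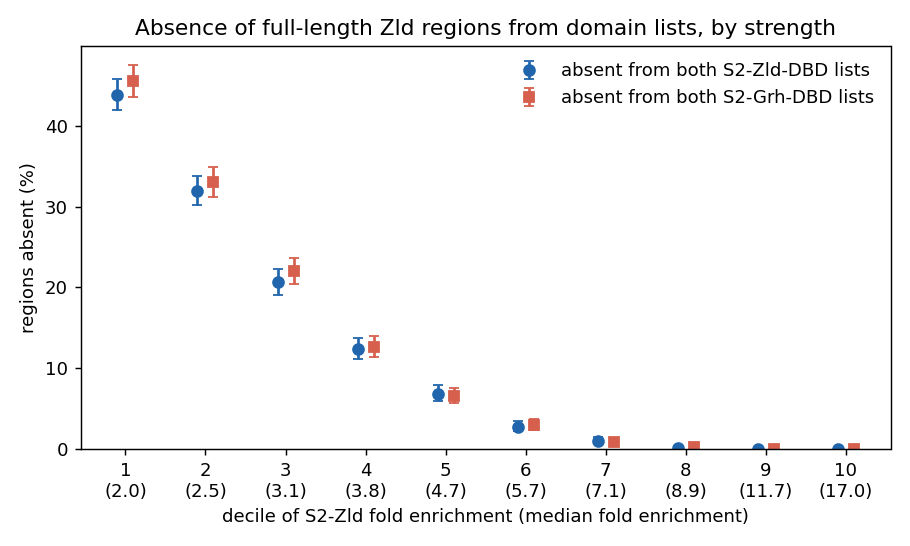
Share of S2-Zld regions absent from both lists of a domain (%, with 95% exact binomial intervals) in each decile of fold enrichment in the S2-Zld list, with the median fold enrichment of the decile in brackets; circles are the S2-Zld-DBD lists and squares the S2-Grh-DBD lists. Both shares start above 43% in the weakest decile and reach 0 in the strongest.

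Domain-absent regions were mostly weak and narrow in the full-length lists themselves. Their fold enrichment in the S2-Zld list ran from 1.16 to 11.6 with a median of 2.49, against 1.14 to 113 with a median of 6.37 in domain-shared regions. In the titration list, which comes from other libraries, the medians were 2.47 and 6.38. The ranges there were 1.21 to 25.3 and 1.25 to 102. Each titration value is that of the titration region with the largest overlap. For domain-absent regions that titration region was up to 1313 bp wide, so some overlapped a strong titration region. Median widths were 110 bp and 203 bp. A deposited −log10 q of at least 10 was reached by 1227 domain-absent regions (40.4%) and by 18693 domain-shared regions (92.9%). At or above the domain-shared median fold enrichment stood 31 domain-absent regions (1.02%). Strength is not independent of being listed, so these values describe the sets and were not tested.

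The 2 full-length lists ordered domain-absent regions loosely. Across the 3037 regions the fold enrichments of the 2 lists had a Spearman's rho of 0.426, against 0.862 across the 20111 domain-shared regions. The range of values is much narrower in the first set, and genome regions are not replicates.

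**Figure D2:**
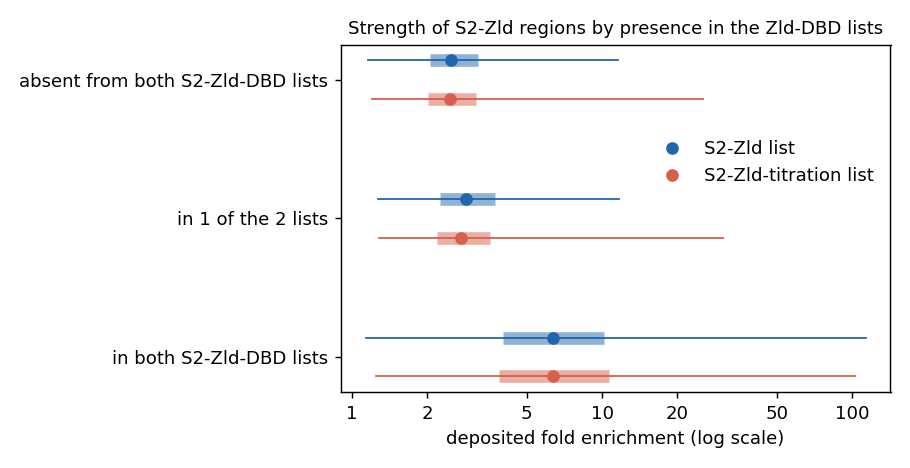
Fold enrichment (log axis) of S2-Zld regions in the S2-Zld list and of the overlapping region in the S2-Zld-titration list, by presence in the S2-Zld-DBD lists. Points are medians, thick bars the middle 50% and thin lines the whole range; regions absent from both domain lists have medians of 2.49 and 2.47, and regions in both 6.37 and 6.38.

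Many domain-absent regions lay close to a region that the domain lists did hold. The gap to the nearest region of either Zld-DBD list had a median of 453 bp, and it was at most 500 bp for 1609 regions (53.0%) and at most 5000 bp for 2824 (93.0%). Regions near the edge of the rule were few. A gap of at most 10 bp was seen for 17 domain-absent regions, with a median fold enrichment of 2.32, and 12 domain-shared regions overlapped a domain list by at most 10 bp, with a median of 1.94. The smallest overlap was 3 bp. Summits of domain-absent regions lay within 5000 bp of another domain-absent summit in 40.4% of cases. The same held for 32.6% of domain-shared summits, measured to the nearest domain-absent summit.

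The strongest domain-absent regions show what the rule selects at its upper end. The first lay inside betaTub97EF, a beta-tubulin gene, at 3R:27988211-27988457 (dm6), 32 bp from a gene end. Its fold enrichment was 11.6 in the S2-Zld list and 5.61 in the titration list. It was in the Grh-DBD list at 1.75 and not in the Grh-DBD titration list, and it was in all 4 full-length lists of Grh and Twist (Twi), at 2.23 to 4.56. Its gap to a Zld-DBD region was 1105 bp in the main and 1050 bp in the titration list.

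The second stood at MtnE, a metallothionein gene, which encodes a small metal-binding protein induced by copper. It covered 591 bp at 3R:20534609-20535199, outside protein-coding genes and 97 bp from an end of MtnE. The fold enrichment was 9.89 in the S2-Zld list and 4.51 in its titration list. The region was present in all 6 lists outside the Zld lists, at 2.39 and 2.01 in the Grh-DBD lists, 2.75 and 3.83 in the S2-Grh lists and 1.74 and 2.10 in the Twi lists. The Zld-DBD lists are thus the 2 lists without it. The part of the copper dose, which differs between the lists, was not tested.

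Next came a region 351 bp from an end of CG5162 (X:17214894-17215059), with 8.65 in the S2-Zld list and 1.82 in the titration list. A region outside protein-coding genes and 21107 bp from the nearest end of Ste:CG33247 (X:14025441-14025755) had 8.41 and 4.01. Stellate genes are a family of near-identical copies, and sharing of reads between copies was not tested for this region. A region of 76 bp near lgs, a co-activator gene of Wnt signalling (4:434295-434370), had 8.24 and 4.06. Each of these 3 was found in at least 1 list of Grh.

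A region inside plx (3R:5705456-5705585) had 7.64 in the S2-Zld list, 8.06 in its titration list and 7.95 in the S2-Grh-titration list, and was absent from all 4 domain lists and both Twi lists. A region inside comt, which encodes the vesicle fusion ATPase NSF (X:13262016-13262172), had 7.11 and 7.16 in the Zld lists, and the S2-Grh list held it at 3.17 while the other 5 lists did not. Of the 7 fold enrichments above, those of plx and comt are the ones that were as high in the titration list as in the main list.

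The remaining 8 regions of this group of 15 lay nearest the ribosomal protein gene RpL17 (7.41), the teneurin adhesion gene Ten-m (7.35), CG5062 (7.35), ppk30 of the pickpocket ion channel family (7.10), CG7213 (7.05, inside Dscam4), CG42354 (7.05), CG46339 (7.01) and the adhesion gene ed (6.99, inside the gene). The region of CG5062 lay inside CG15465 and rg, 33321 bp from an end of CG5062. Of the 15, 10 were in the S2-Grh-DBD list, 4 in its titration list, 13 in S2-Grh, 12 in S2-Grh-titration, 12 in S2-Twi and 9 in S2-HA-Twi-titration. Over all 3037 domain-absent regions the shares were, in the same order, 21.2%, 18.9%, 47.5%, 52.2%, 64.3% and 52.7%. All 15 were in at least 1 list of another protein, while 10.9% of all domain-absent regions were in none. The heat map of the 15 regions gives these values by list, and empty fields mark lists without the region.

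**Figure D3:**
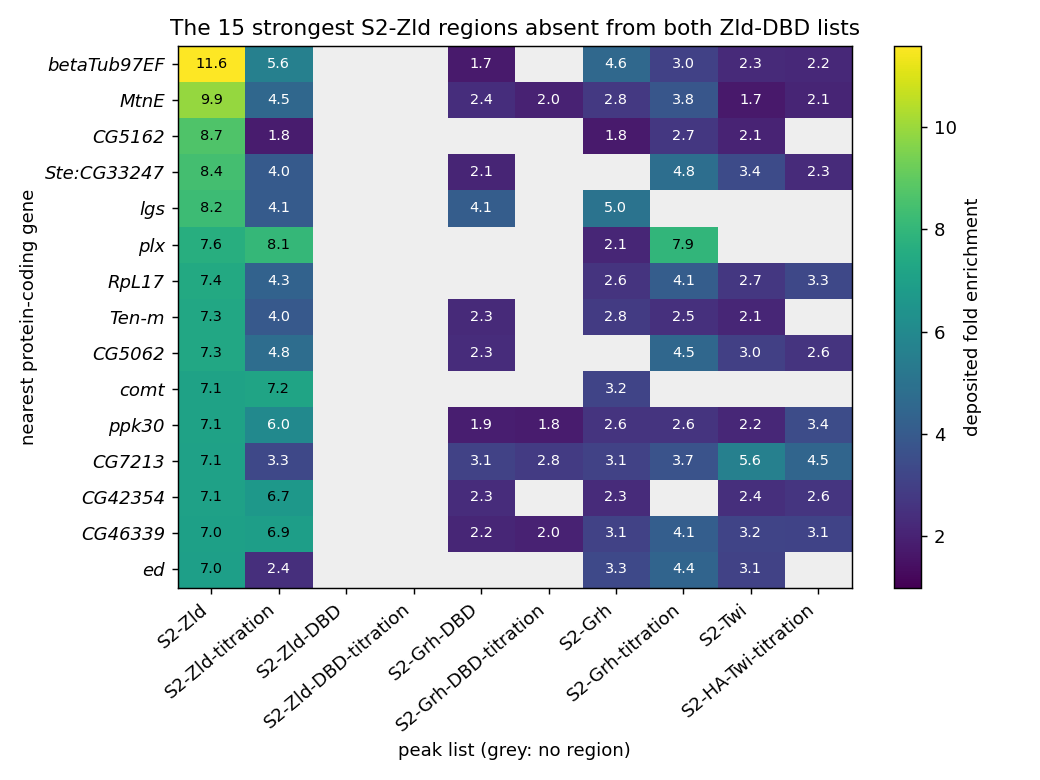
Fold enrichment of the 15 strongest domain-absent regions (rows, named by nearest protein-coding gene) in the 10 peak lists (columns); grey fields have no overlapping region. Both Zld-DBD columns are empty by the rule. In the S2-Grh-DBD column 10 of 15 fields are filled, and that list holds 21.2% of all domain-absent regions. Values of different lists have different backgrounds and are not compared by a test.

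No domain-absent region was nearest to the gene zld itself. A region of 4764 bp inside zld (X:19777526-19782289) belonged to the domain-shared set, with 3.40 in the S2-Zld list, 7.18 in the titration list, 10.2 in the Zld-DBD list and 10.7 in the Zld-DBD titration list. It was in none of the 6 other lists. The introduced genes hold zld sequence, and reads from introduced sequence cannot be told apart from reads of the gene here. The nearest regions of grh (6 regions) and twi (2 regions) were all domain-shared. At MtnA, a copper-inducible metallothionein gene, the region with the highest fold enrichment (18.6) was domain-shared and a weak region inside the gene (2.34) was domain-absent.

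Domain-absent regions were more often on the X chromosome. The X held 775 of 3037 domain-absent regions (25.5%, 24.0 to 27.1) and 3523 of 20111 domain-shared regions (17.5%, 17.0 to 18.1). The difference was 8.0 percentage points (6.39 to 9.66) and passed Fisher's exact test over regions (two-sided, adjusted p = 1.92e-24 over the 3 location measures). Seen by chromosome, 16.6% of the 4657 X regions were domain-absent, against 10.9% of the 20702 autosomal regions. The arms were close to each other, with 10.2% on 2L, 10.1% on 2R, 12.1% on 3L and 11.2% on 3R, and chromosome 4 stood at 9.4% of 266 regions. Regions are not replicates, so these p-values describe the lists and hold no spread between libraries.

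The X difference was also present among regions of like strength. Deciles of fold enrichment were formed over the 2 sets together, and the 9 that held both sets entered. Within these the difference was 12.4 points, with a pooled odds ratio of 2.15 (1.93 to 2.40). The adjusted p was 1.35e-43 in the Cochran-Mantel-Haenszel chi-square test. In decile 2 of the 25370 regions, 47.3% of X regions and 28.7% of autosomal regions were domain-absent. In decile 5 it was 14.9% of X regions and 4.90% of autosomal regions.

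The X share was also higher for the Grh domain. Of the X regions, 15.9% (14.9 to 17.0) were absent from both Grh-DBD lists, against 11.6% (11.2 to 12.1) of autosomal regions. The same order held for the full-length lists of other factors: 6.87% of X and 4.76% of autosomal regions were absent from both S2-Grh lists, and 4.19% of X and 2.01% of autosomal regions from both Twi lists. The X share of whole lists also differed. It was 17.5% and 18.3% in the 2 full-length Zld lists, 12.6% and 14.4% in the Zld-DBD lists and 14.6% and 15% in the Grh-DBD lists. The other full-length lists varied, with 11.8% in S2-Grh, 17.6% in S2-Grh-titration, 9.70% in S2-Twi and 18.6% in S2-HA-Twi-titration. The part of these list-wide shares in the X difference was not tested.

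A direct comparison of the 2 domains rests on the small sets that only 1 of them lacks. The X held 66 of 325 regions absent with the Zld domain and present with the Grh domain (20.3%, 16.1 to 25.1), and 50 of 360 of the reverse set (13.9%, 10.5 to 17.9). This difference of 6.42 points (0.783 to 12.1) passed Fisher's exact test (adjusted p = 0.0478, over 3 measures). Set against domain-shared regions, at 17.5%, the 325 did not pass (adjusted p = 0.186 in Fisher's exact test). The comparisons with the Grh domain were chosen after the values were seen.

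**Figure D4:**
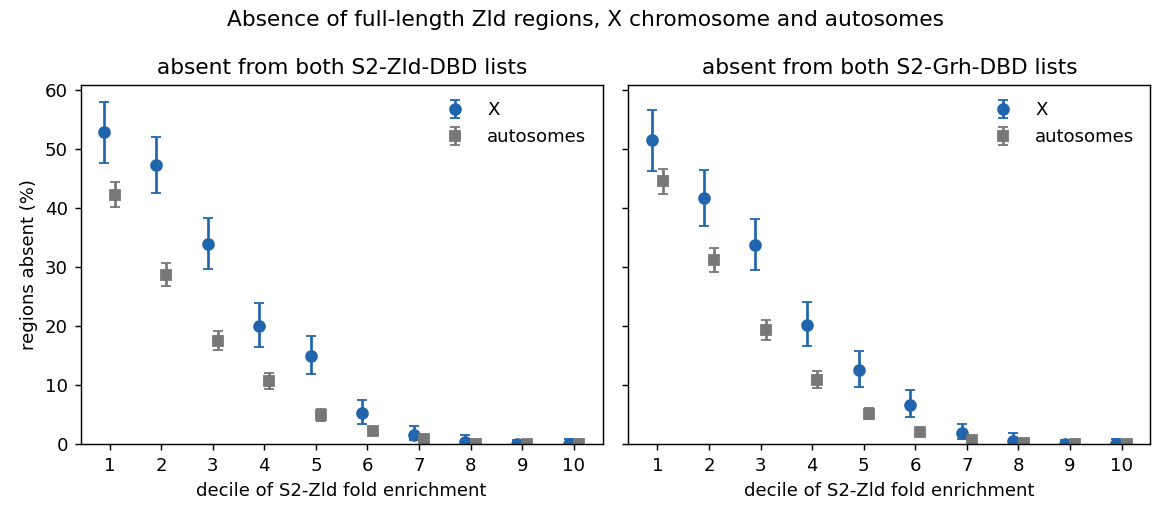
Share of S2-Zld regions absent from both lists of the Zld domain (left panel) or the Grh domain (right panel) in each decile of fold enrichment (%, with 95% exact binomial intervals); circles are regions on the X chromosome and squares autosomal regions. In deciles 2 to 5 the X shares lie above the autosomal shares in both panels.

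Domain-absent regions lay less often near gene ends than domain-shared regions, and the direction was not the same among regions of like strength. The summit lay at most 500 bp from a gene's start or end in 33.9% (32.2 to 35.6) of domain-absent and 49.8% (49.1 to 50.5) of domain-shared regions, a difference of −15.9 points (Fisher's exact test, adjusted p = 7.87e-61). Within the 9 deciles of fold enrichment that held both sets, the difference was 2.69 points in the other direction (Cochran-Mantel-Haenszel chi-square test, adjusted p = 0.0136). The sets had n = 3037 and n = 20111 regions before the decile without domain-absent regions was left out. Within deciles of the titration list's fold enrichment the difference was −0.483 points and did not pass (the same test, n = 3037 and n = 20111 regions, adjusted p = 0.665). In the deciles formed over all 25370 regions the direction varied. The shares of domain-absent and domain-shared regions were 25.8% and 24.7% in the weakest decile. They were 45.7% and 38.6% in decile 4, and 38.0% and 50.4% in decile 6. The gene table gives no strand, so promoters were not separated from 3' ends.

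Position inside genes also depended on strength. Summits inside a gene made up 78.2% (76.7 to 79.7) of domain-absent and 66.5% (65.9 to 67.2) of domain-shared regions, a difference of 11.7 points (Fisher's exact test, adjusted p = 8.79e-40). Within the 9 deciles of fold enrichment in the S2-Zld list that held both sets, it was −4.24 points (Cochran-Mantel-Haenszel chi-square test, adjusted p = 6.96e-06). The sets had n = 3037 and n = 20111 regions before the decile without domain-absent regions was left out. Within deciles of the titration list's values the difference was 4.24 points (the same test, n = 3037 and n = 20111 regions, adjusted p = 2.09e-05). The direction within deciles thus depended on which list's strength was used.

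Most domain-absent regions were listed with at least 1 full-length factor other than Zld. The S2-Twi list, the longest with 71754 regions, held 64.3% of domain-absent and 99.4% of domain-shared regions. The S2-Grh list held 47.5% and 97.9%, the S2-Grh-titration list 52.2% and 95.6%, and the S2-HA-Twi-titration list 52.7% and 95.8%. All 4 lists together held 509 domain-absent regions (16.8%), and 346 (11.4%) were in none of them. The lower shares were also seen at like strength. In the weakest decile the S2-Twi list held 54.2% of domain-absent and 95.3% of domain-shared regions. These shares are not independent of the rule and were not tested.

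A core of 330 domain-absent regions (10.9%, 9.78 to 12.0) was in none of the 8 lists outside full-length Zld. Their median fold enrichment was 2.19 and the highest 4.92. The X held 121 of them (36.7%, 31.5 to 42.1), and 25.5% of all domain-absent regions. X regions were more often absent from each pair of lists, so this share is not independent of how the regions were picked. It was not tested. The strongest was nearest to CG15059 (X:18263824-18264422), with 4.92 in the S2-Zld list and 6.71 in its titration list. The second was 79 bp from an end of ZnT35C, a zinc transporter gene, with 4.8 and 1.64. The region inside the cell polarity gene baz had 4.45 and 6.79.

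Domain-absent regions were nearest to 2156 protein-coding genes, 15.5% of 13935, and 1725 of these genes also had a domain-shared region. Of the 2156 genes, 1632 had a single domain-absent region. Genes with no domain-shared region numbered 431.

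A few genes were nearest to many domain-absent regions. They were picked by this count, and gene length was not taken into account. Of all domain-absent and domain-shared regions together, 13.1% were domain-absent. Regions of neither set are not counted here. Inside Ten-m lay 15 domain-absent regions, some of them nearest to an end of another gene. Counted by nearest gene end, Ten-m had 11 domain-absent and 15 domain-shared regions. The zinc-finger transcription factor gene peb had 10 against 5, all 10 outside protein-coding genes between X:4597455 and X:4613818, with fold enrichments of 1.98 to 5.63 and a median of 2.92. A single region of these 10 was in a Grh-DBD list, and 70.6% of all domain-absent regions were in neither of those lists. Regions nearest to an end of Cyp4ac1 numbered 9 against 4, and all 9 lay inside tkv, which encodes a type I receptor for BMP signals.

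The homeodomain transcription factor gene ct had 9 against 21, all 9 inside the gene, at 1.47 to 3.61. Tet, which encodes a DNA and RNA dioxygenase, had 8 against 20. CG15059 had 7 against 1, at 2.13 to 4.92. The odd-skipped family gene drm had 7 against 5, all 7 outside protein-coding genes. None of these 7 was in a Grh-DBD list, as was the case for 70.6% of all domain-absent regions. CG42238 had 7 against 27.

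Genes of the early zygotic list are among the first to be transcribed in the embryo. They were the nearest gene of domain-absent regions in 16 of 34 cases (47.1%), against 15.5% of all protein-coding genes. The nearest gene was not always close. For the strongest region of each of the 16 genes, the distance to the gene's end ran from 150 bp at hkb to 18845 bp at kni. Domain-shared regions were nearest to 22 of the 34 (64.7%), against 57.5% of all genes. A share of genes also depends on how many regions each gene has. Counted by region, the list had 21 domain-absent and 74 domain-shared regions, so 22.1% of these regions were domain-absent, against 13.1% for all genes. The gap gene Kr had the highest value, 5.39 in the S2-Zld list and 6.75 in its titration list, at 2R:25224979-25225227 inside CG9380. That region was also in all 6 lists of Grh and Twi and the Grh domain. Next were the head gap gene oc (3.44), the BMP ligand gene dpp (3.32, inside the gene), the pair-rule gene opa (3.20), the terminal gap gene hkb (3.20) and the gap genes hb (3.02) and kni (2.73). The mesoderm regulator sna had 2 regions, of which the stronger (2.78 and 3.19) was in none of the 8 other lists, and the BMP antagonist gene sog stood at 2.67. The genes sna, hb and hkb had no domain-shared region.

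Of 14 copper and metal response genes, 5 were nearest to domain-absent regions (35.7%) and 9 to domain-shared regions (64.3%), against 15.5% and 57.5% of all genes. Counted by region, 6 were domain-absent and 16 domain-shared, so 27.3% of these regions were domain-absent, against 13.1% for all genes. Beside MtnE and ZnT35C, which had no domain-shared region, these were the copper exporter gene ATP7 (2.90), the superoxide dismutase gene Sod1 (2.59) and MtnA. Of 22 heat shock and oxidative stress genes, 1 had a domain-absent region, Hsp83 (2.39), and 17 had a domain-shared region (4.55% and 77.3%, against 15.5% and 57.5% of all genes). The regions of this list were 1 domain-absent and 50 domain-shared, or 1.96% domain-absent against 13.1% for all genes.

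Mesoderm genes had domain-absent regions in 13 of 25 cases (52.0%) and domain-shared regions in 21 (84.0%), against 15.5% and 57.5% of all genes. By region the counts were 19 domain-absent and 94 domain-shared, or 16.8% domain-absent against 13.1% for all genes. The myoblast fusion gene mbc stood at 4.56 (inside the gene), stumps, an adaptor of FGF signalling, at 3.56 and kirre at 3.02 (inside Syx4). The muscle identity gene slou stood at 2.96 and the integrin genes mys at 2.96 and if at 2.84. Hemocyte genes had them in 11 of 22 cases and domain-shared regions in 20 (90.9%), where all genes stood at 15.5% and 57.5%. By region these were 19 and 86, or 18.1% domain-absent. The highest were PGRP-LC, a receptor for bacterial peptidoglycan (3.14), He (3.02), the scavenger receptor gene crq (2.84) and the phagocytosis receptor gene eater (2.75). Of these, the region of He lay inside NimB5 and that of crq inside ex. The GATA factor gene srp had 4 domain-absent regions, the strongest at 1.97.

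Of 18 Polycomb group and Hox genes, 9 had a domain-absent region and all 18 a domain-shared region, against 15.5% and 57.5% of all genes. Their regions numbered 15 domain-absent and 79 domain-shared, or 16.0% domain-absent against 13.1% for all genes. The strongest lay inside Ubx (3.91), followed by pho (3.20), Abd-B (3.05), lab (3.01), Dfd (2.67) and ph-d (2.66). Epidermal barrier genes stood at 6 of 26 (23.1%), with baz (4.45), the junction gene dlg1 (4.43), Nrg (3.38) and pnr (2.59), and 20 had domain-shared regions (76.9%), against 15.5% and 57.5% of all genes. The genes baz, dlg1 and Nrg lie on the X. By region, 15 were domain-absent and 88 domain-shared, or 14.6% domain-absent.

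Neuronal genes stood at 4 of 12 (33.3%), with nwk (3.73), brp (2.83), Syt1 (2.55) and Dscam1 (2.49), and domain-shared regions at 8 (66.7%), against 15.5% and 57.5% of all genes. Their regions were 5 domain-absent and 23 domain-shared, or 17.9% domain-absent against 13.1% for all genes. Of 6 protein-coding dosage compensation genes, mle (3.08) and msl-3 (2.90) had a domain-absent region (33.3%). All 6 had a domain-shared region, and the shares of all genes were 15.5% and 57.5%. The list had 2 domain-absent and 11 domain-shared regions in all, or 15.4% domain-absent against 13.1% for all genes. In 8 of the 9 lists the share of genes with a domain-absent region was above that of all genes, and so was the share with a domain-shared region in all 9. The lists were not tested, and none is called particular from these counts.

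**Figure D5:**
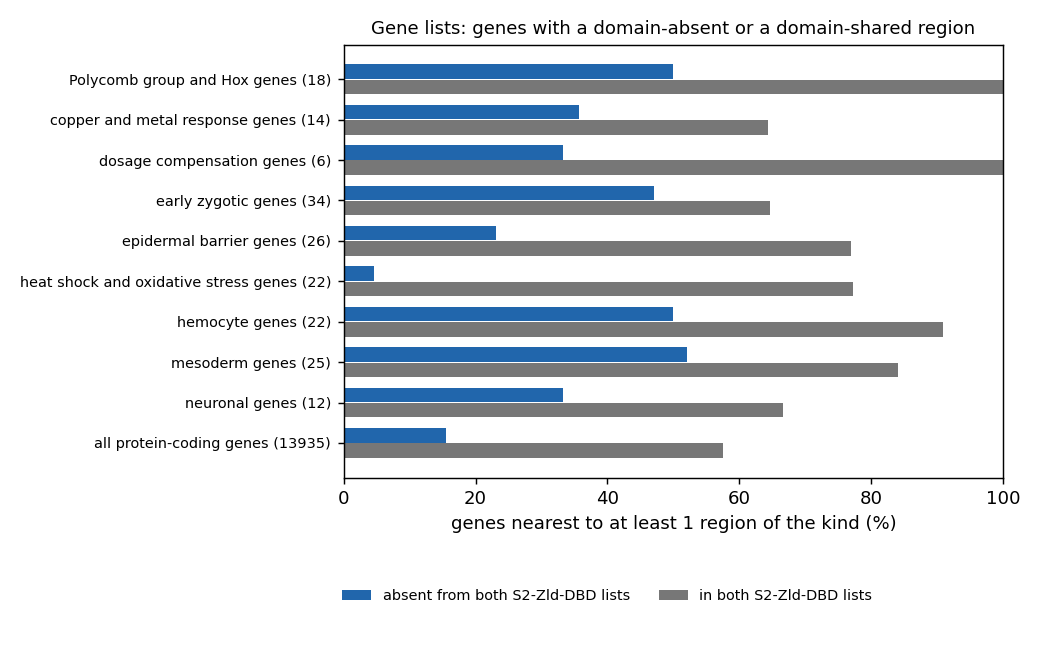
Share of genes (%) in each list, with the number of genes in brackets, that are nearest to at least 1 domain-absent region (upper bar) or domain-shared region (lower bar). Heat shock genes have the shortest domain-absent bar, at 4.55%, against 15.5% for all 13935 protein-coding genes.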

How the data were processed

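The values are 10 peak lists of ATAC-seq in S2 cells, with dm6 positions. MACS2, Bowtie2 and deepTools 3.5.1 are among the tools in the submitters' processing notes; no source used here gives their settings or says how transposase offsets were treated. Each deposited row holds the authors' fold enrichment (a ratio), a −log10 q, a score equal to 10 times that −log10 q, and a summit. The 2 deposited domain titration lists hold windows of 200 bp without a summit, and their midpoint was used.

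Windows of 1 peak number were joined, with the strongest summit. Regions were paired with the protein-coding gene whose start or end lay nearest, from RefSeq's table for Release 6 (no strand). The shares near gene ends and inside genes used all 17796 genes, including those that are not protein-coding. Of 178 list symbols, 169 matched by symbol and 5 by synonym, and 4 roX entries were left out as not protein-coding.

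Location shares were compared by two-sided Fisher's exact tests over regions, with Benjamini-Hochberg adjustment over 3 measures and a threshold of 0.05, and within deciles by the Cochran-Mantel-Haenszel test. Deciles that held only 1 of the 2 sets did not enter the second test. Both tests were tried on simulated data. Named genes are those nearest the 15 strongest domain-absent regions, the 8 with most such regions, list members with one at or above the set's median fold enrichment, and zld, grh, twi and MtnA. Hsp83, srp and the 3 regions given for the full-length Zld lists alone were named after their values were seen. Regions, lists and tests were chosen with earlier results of these data known. Motif shares were planned and not run, as no genome was in use. Python 3.11.15, pandas 2.3.3, scipy 1.17.1 and statsmodels 0.14.6 were used.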

Additional observations from a re-analysis of the deposited data

How the results depend on the processing

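No paired analysis was possible because each list pools libraries, and for the same reason no replicate could be left out. The count of 3037 domain-absent regions was 827 with a −log10 q of at least 10 in both full-length lists, 1428 with no domain region within 500 bp and 8430 without the demand for the titration list. In the other 7 settings it lay between 2405 and 4170. These include unjoined windows, which left it at 3037. They also include the Grh-DBD lists in place of the Zld-DBD lists, which count other regions (3146). The X difference kept its direction and passed in 16 of 17 settings (4.40 to 13.6 points). These settings are not independent of each other. Unjoined windows left both sets unchanged, and leaving out regions inside zld gave 3037 and 20110 regions. Settings with the Grh-DBD lists in place of the Zld-DBD lists compare other sets, of 3146 and 19941 regions. For the 325 regions present in both Grh-DBD lists the X difference was 2.79 points and did not pass. The gene-end difference turned to 2.69 points within deciles of fold enrichment and to 8.84 points between the sets that only 1 domain lacks. It did not pass at 0.251 points within deciles with the Grh-DBD lists in place of the Zld-DBD lists, at −4.57 points for the 325 regions and at −0.483 points within deciles of the titration list's fold enrichment. The difference inside genes turned to −4.24 points within deciles of fold enrichment and to −4.52 points there with the Grh-DBD lists (both passed), and did not pass at 1.37 points among regions absent from both Grh-DBD lists and at 1.24 points between the sets that only 1 domain lacks. For each of these the cause was not tested. Settings that use the Grh-DBD lists, the titration list's strength or unjoined windows were added after the data were seen. Depth per list is unknown, so absence of a region means that it was not called, not that the chromatin was closed. The planned motif shares and their alternatives were not run.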
